A study of Homo sapiens with 24 samples.

Results

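The genes described here are 39 targets of the hypoxia-inducible factors (HIF) and enzymes or carriers of glycolysis. They were chosen by name, as the rows of the count table whose gene symbol is on a list of 39 symbols. All 39 were found among 58735 genes, and all 39 passed the filter on low counts in both cell lines. The rule uses names and no measured value, but the list was drawn up with earlier results of these data known.

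Glycolysis splits glucose into pyruvate in the cytosol and yields ATP without oxygen. Lactate dehydrogenase turns pyruvate into lactate, while pyruvate dehydrogenase feeds it into mitochondria. HIF is a dimer of an alpha subunit (HIF1A or EPAS1) with ARNT. Prolyl hydroxylases encoded by EGLN1, EGLN2 and EGLN3 mark the alpha subunit for destruction when oxygen is present. These enzymes need iron and 2-oxoglutarate, and ascorbate supports their activity. When the alpha subunit accumulates, the dimer binds DNA at a short core sequence and raises transcription of glucose carriers, glycolytic enzymes and genes of mitophagy, blood vessel growth and collagen modification. Several targets, EGLN3 among them, are themselves part of the feedback on HIF.

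Polyadenylated RNA was sequenced from THP-1 and MOLM-13, both established lines of human acute myeloid leukemia that carry the KMT2A-MLLT3 fusion. Cells of each line were kept for 72 h in 1 of 4 treatments. The vehicle group received PBS and DMSO. The LAA group received vitamin C, as L-ascorbic acid (LAA), at 250 µM, given in PBS. Olaparib-treated cells received olaparib, an inhibitor of PARP1 and PARP2, at 1 µM, given in DMSO. The combination group received both compounds. With 3 libraries in each of the 8 groups, 24 were read. Nothing in the labels says that replicates came from separate cultures. The p-values are therefore measures of the spread among these libraries, which may be technical. Each line is a single model, so a difference between them is a difference between these 2 lines.

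The HIF core sequence was looked for in promoters, because many members moved together. RefSeq promoters (GRCh38.p14) were available for 34 of the 39 members, and the 250 bases before the start site were read. The letters ACGTG, on either strand, stood in 15 of 34 member promoters (44.1%) and in 6501 of 35116 promoters of this length (18.5%). Members that fell with the combination in both lines held it in 7 of 15 promoters (46.7%), and the other members in 8 of 19 (42.1%). The related letters GCGTG, on either strand, stood in 13 of 34 member promoters (38.2%) and in 32.2% of all. A match is a run of letters and no measure of binding. The members were listed for being HIF targets or glycolysis genes. Their share beside that of all promoters can follow from the list and says nothing of the treatments. The promoters of all genes were not matched to theirs for gene type or base content. The 7 promoters of members that fell in both lines are shown because they carry the letters beside the genes described below. Each is written 5′ to 3′ on the strand of the gene. Capitals mark ACGTG or its reverse complement CACGT, and CACGTG holds both. For LDHA and BNIP3 the stretch is the part that no annotated GENCODE v29 exon covers; for the others it is 30 bases around the match nearest the start site.
LDHA, chr11:18394313-18394387, plus strand: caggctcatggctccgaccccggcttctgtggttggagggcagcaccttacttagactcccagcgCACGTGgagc
BNIP3, chr10:131982014-131982173, minus strand: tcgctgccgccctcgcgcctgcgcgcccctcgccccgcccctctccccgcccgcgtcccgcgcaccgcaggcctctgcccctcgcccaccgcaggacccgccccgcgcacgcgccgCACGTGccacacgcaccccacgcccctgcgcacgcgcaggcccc
ALDOC, chr17:28576906-28576935, minus strand: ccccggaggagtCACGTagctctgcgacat
BHLHE40, chr3:4979276-4979305, plus strand: cacagggtagaaCACGTagctccaacccac
HK2, chr2:74834067-74834096, plus strand: aatgggcgtgcgCACGTcactgatccggag
ALDOA, chr16:30064089-30064118, plus strand: ccttcccctccaCACGTcaacgattctatt
P4HA1, chr10:73096935-73096964, minus strand: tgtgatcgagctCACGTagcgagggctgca
The whole 250-base window of LDHA held 5 matches, that of BHLHE40 4, that of ALDOC 3 and those of HK2 and BNIP3 2 each. A CACGTG counts as 2 matches, so these are not numbers of sites. The 2 of BNIP3 are the CACGTG printed above.

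Total counts per library ran from 18666259 to 25265870, and TMM scaling factors from 0.943 to 1.04. Genes of the myeloid lineage were expressed in every group, SPI1 at 309 to 371 CPM on average, but some moved with the combination. From vehicle to combination in THP-1, LYZ averaged 147 and 396 CPM, ITGAM 69.1 and 35.0 and CSF1R 106 and 77.2. In MOLM-13, LYZ averaged 138 and 181 CPM, ITGAM 71.5 and 42.4 and CSF1R 83.5 and 54.3. The highest CD14 level in a vehicle and a combination library was 5.58 and 14.2 CPM in THP-1, and 1.56 and 2.69 CPM in MOLM-13. Mitochondrially encoded genes took 6.63 to 11.0% of counts, with olaparib replicate 3 of MOLM-13 highest. Their share was higher with the combination than with vehicle, without overlap, in THP-1 (7.77 to 9.47% against 6.81 to 7.49%) and in MOLM-13 (8.73 to 9.31% against 6.67 to 6.74%). The part of the lineage markers and of this share in the members' changes was not tested. The line labels need care. A list of 15 genes that are nearly silent in THP-1, picked in an earlier analysis of these libraries after their values were seen, summed to at most 0.361 CPM on average in any THP-1 group. In the libraries labelled MOLM-13 the same sum was 31.6 ± 0.888 CPM (SD, n = 3) with vehicle and 19.2 ± 1.37 with olaparib, but 5.34 ± 0.500 with LAA and 4.08 ± 1.04 with the combination. FLT3, a receptor kinase gene, averaged 35.9 CPM with vehicle, 24.9 with olaparib, 7.83 with LAA and 10.0 with the combination in these libraries, and 6.68 to 11.1 CPM in the THP-1 groups. MEIS1, a homeobox gene, averaged 3.69, 1.82, 0.424 and 0.312 CPM in the same order, and at most 0.206 CPM in a THP-1 group. Between the vehicle groups of the lines 765 of 17089 genes (4.48%) differed. Results of LAA or the combination against vehicle in MOLM-13 therefore rest on libraries whose line markers also differed, and their part in those results was not tested. The combination against LAA compares MOLM-13 libraries with like marker sums, so it is given beside the comparison with vehicle.

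In vehicle-treated cells the members spanned a wide range of length-corrected level. In THP-1 vehicle libraries the authors' FPKM averaged 400 for GAPDH, 392 for ENO1 (enolase), 241 for PGAM1, 182 for LDHA, 153 for TPI1, 135 for PGK1 and 134 for PKM. EGLN3 (0.349 FPKM), PFKM (0.428), ENO2 (0.628), ADM (0.670) and ANKRD37 (0.867) were at the low end. The levels of GAPDH and ENO1 lay within their spread of each other, as did those of PGK1 and PKM. The lines were alike for most members: 3 of 39 were called between the vehicle groups, 2 higher and 1 lower in MOLM-13, where 1.99% of genes were higher and 2.49% lower. SLC2A3, the high-affinity glucose carrier GLUT3, was 2.86-fold higher in MOLM-13 (19.1 ± 1.45 against 6.67 ± 0.203 CPM; edgeR adjusted p = 9.15e-07). NDRG1 was 1.35-fold higher and SLC2A1 1.23-fold lower in MOLM-13 (edgeR adjusted p = 0.00128 and 0.00290).

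With the combination, HIF targets and a subset of glycolytic genes fell in both lines. In THP-1, 27 of 39 members fell and 1 rose, where 13.5% of the 16331 genes tested fell and 13.5% rose (27.1% called in all). In MOLM-13, 20 of 39 fell and 1 rose, where 7.35% of 16160 genes fell and 4.85% rose (12.2% called in all). The members' median log2 fold change was -0.45 in THP-1 and -0.39 in MOLM-13, while the median over all genes was -0.01 and 0.00. In bulk RNA, fewer cells of a kind and less RNA per cell cannot be told apart. All 3 combination libraries lay below all 3 vehicle libraries for 30 members in THP-1 and 28 in MOLM-13, which held for 19.5% and 17.4% of all genes. In THP-1, 23 members were called under each of the 13 alternative settings; in MOLM-13, 16 were. In these edgeR fits no more than 2 members were called for either single agent in a line, as the map of log2 fold changes shows. Other settings called up to 3 for olaparib in THP-1, 5 for LAA in MOLM-13 and 4 for olaparib in MOLM-13.

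**Figure D1:**
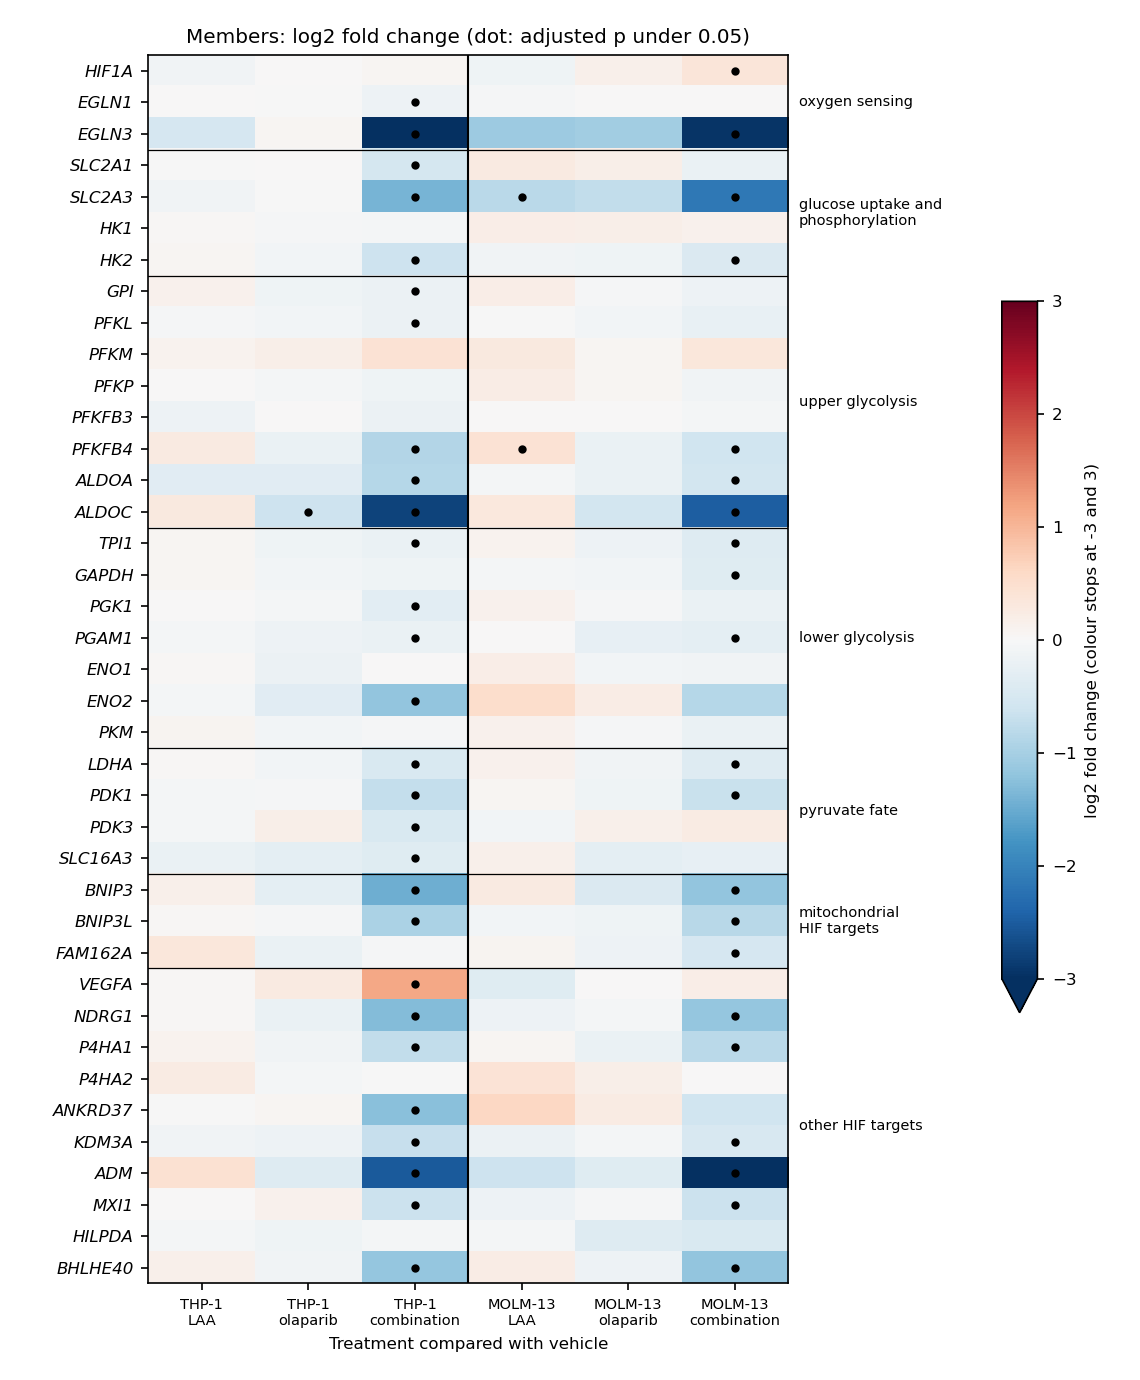
Log2 fold change against vehicle of the 39 members (rows, grouped by role) for LAA, olaparib and the combination in THP-1 (left 3 columns) and MOLM-13 (right 3 columns); the colour stops at -3 and 3 and a dot marks an edgeR adjusted p under 0.05. Dots fill the combination columns (28 in THP-1 and 21 in MOLM-13) and number at most 2 in each single-agent column.

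Among the oxygen-sensing genes, EGLN3, a HIF prolyl hydroxylase whose own gene HIF induces, fell furthest in THP-1. Its levels there were 1.68, 2.59 and 3.50 CPM with vehicle and 0.421, 0.381 and 0.0528 CPM with the combination, a log2 fold change of -3.13 ± 0.47 (SE; edgeR adjusted p = 1.00e-05). In MOLM-13 they were 3.22, 3.47 and 1.85 CPM with vehicle and 0.466, 0.243 and 0.398 CPM with the combination, a log2 fold change of -2.95 ± 0.42 (edgeR adjusted p = 8.08e-05). The groups did not overlap in either line, but the counts were low: 18 against 159 in THP-1 summed over 3 libraries, and 23 against 190 in MOLM-13. The deposited gene model of EGLN3 spans SPTSSA, whose log2 fold change was -0.15 and -0.01. EGLN1, which encodes the main oxygen sensor PHD2, was far more abundant (258 ± 3.30 CPM in THP-1 vehicle) and fell 1.12-fold in THP-1, a call lost without 5 of the 6 libraries (highest edgeR adjusted p = 0.161). In MOLM-13 it stood at 287 ± 7.85 CPM with vehicle and 288 ± 9.58 with the combination.

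HIF1A, the alpha subunit itself, was not called lower in either line. In THP-1 its levels were 71.1, 72.0 and 69.8 CPM with vehicle and 76.2, 77.9 and 71.2 with the combination, groups that overlapped (log2 fold change 0.07 ± 0.08, edgeR adjusted p = 0.558). In MOLM-13 they were 59.7, 65.5 and 67.8 CPM with vehicle and 80.2, 90.1 and 79.0 with the combination, a rise of 1.29-fold (edgeR adjusted p = 0.00973). That call was lost without vehicle replicate 1 (edgeR adjusted p = 0.0583) or combination replicate 2 (0.0757). HIF1A messenger RNA is not a measure of HIF1A protein, which is set mainly by its degradation. Against vehicle, the log2 fold changes of HIF1A with LAA were -0.11 in THP-1 and -0.12 in MOLM-13, and with olaparib 0.02 and 0.16, none of them called.

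Of the 4 genes for glucose uptake and phosphorylation, 3 fell in THP-1 and 2 in MOLM-13, where 13.5% and 7.35% of all genes fell. SLC2A3 stood at 6.71, 6.45 and 6.85 CPM in THP-1 vehicle libraries and at 2.20, 3.42 and 2.01 with the combination (2.63-fold lower, edgeR adjusted p = 2.69e-05). In MOLM-13 it went from 19.8, 20.0 and 17.4 CPM to 4.97, 3.89 and 4.08 (4.43-fold lower, edgeR adjusted p = 4.77e-08). With LAA, where the line-marker sum was like that of the combination, it stood at 12.2, 10.1 and 10.2 CPM. SLC2A3 also differed between the vehicle groups of the lines, and the part of the line markers in its fall from vehicle was not tested. No combination library reached any vehicle library of its line. SLC2A1, the basal glucose carrier GLUT1, fell 1.44-fold in THP-1, from 367, 365 and 385 CPM to 256, 264 and 261 (edgeR adjusted p = 7.34e-08). In MOLM-13 it was 287, 312 and 310 CPM with vehicle and 264, 275 and 256 with the combination (log2 fold change -0.19), and it was not called. HK2, the inducible hexokinase, fell 1.53-fold in THP-1 and 1.34-fold in MOLM-13, where the call was lost without 5 of the 6 libraries (highest edgeR adjusted p = 0.121). HK1, the constitutive hexokinase, averaged 61.0 and 59.1 CPM in THP-1 and 51.2 and 56.6 in MOLM-13, and was called in neither.

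In upper glycolysis, from glucose 6-phosphate to the triose phosphates, 5 of 8 genes fell in THP-1 and 3 in MOLM-13 (median log2 fold change -0.18 and -0.19). The shares of all genes that fell were 13.5% and 7.35%. ALDOC, the aldolase C gene (chr17:28573115-28577264, minus strand, hg38), stood at 42.0, 43.0 and 47.1 CPM in THP-1 vehicle libraries and at 6.27, 7.75 and 5.28 with the combination. Its log2 fold change was -2.78 ± 0.13 (6.85-fold lower, edgeR adjusted p = 2.93e-15). In MOLM-13 the levels were 55.4, 49.7 and 47.1 CPM against 7.66, 12.8 and 6.61, a log2 fold change of -2.47 ± 0.17 (edgeR adjusted p = 7.07e-09). Each vehicle library was above 47 CPM in MOLM-13 and above 41 in THP-1, and no combination library reached 13. ALDOC shares its locus with the same-strand gene AC005726.1, whose log2 fold change was -0.41 in THP-1 (edgeR adjusted p = 0.186) and -0.04 in MOLM-13.

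The other aldolase gene, ALDOA, fell 1.82-fold in THP-1 (24.3 ± 1.23 to 13.5 ± 2.25 CPM) and 1.46-fold in MOLM-13 (20.3 ± 2.26 to 13.9 ± 1.31 CPM), the second call being lost without 5 of the 6 libraries (highest edgeR adjusted p = 0.148). It overlaps AC093512.2 on the same strand, so its level is uncertain. PFKFB4, which makes and breaks down the phosphofructokinase activator fructose 2,6-bisphosphate, fell 1.85-fold in THP-1 (29.9 ± 0.345 to 16.3 ± 0.995 CPM) and 1.52-fold in MOLM-13 (34.1 ± 3.67 to 22.5 ± 0.557 CPM). Its relative PFKFB3 was called in neither line (60.9 to 54.1 CPM on average in THP-1, 54.7 to 52.7 in MOLM-13). The phosphofructokinase subunit genes PFKM and PFKP were called in neither line, and PFKL fell 1.12-fold in THP-1, a call lost without each of the 6 libraries (highest edgeR adjusted p = 0.252). PFKM overlaps SENP1 on the opposite strand, so its level is uncertain. GPI, which interconverts glucose and fructose phosphates, fell 1.13-fold in THP-1, lost without 5 of the 6 (highest 0.142).

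In lower glycolysis, from the triose phosphates to pyruvate, 4 of 7 genes fell in THP-1 and 3 in MOLM-13 (median log2 fold change -0.20 and -0.29). Of all genes, 13.5% and 7.35% fell. PGK1, the first ATP-yielding enzyme, went from 767, 732 and 759 CPM to 571, 640 and 619 in THP-1 (1.24-fold lower, edgeR adjusted p = 7.01e-05). In MOLM-13 it averaged 714 with vehicle and 619 with the combination and was not called. GAPDH fell 1.29-fold in MOLM-13, from 1330, 1300 and 1210 CPM to 979, 1040 and 950 (edgeR adjusted p = 0.00509), and was not called in THP-1 (1.09-fold lower, edgeR adjusted p = 0.0984). TPI1 fell 1.16-fold in THP-1 and 1.31-fold in MOLM-13, and the mutase gene PGAM1 fell 1.15-fold and 1.23-fold. Without 3 of the 6 libraries TPI1 lost its THP-1 call (highest edgeR adjusted p = 0.143), and without 4 of the 6 PGAM1 lost its MOLM-13 call (highest 0.0949). ENO1 was called in neither line and averaged 2090 and 2100 CPM in THP-1 and 2040 and 1890 in MOLM-13. Pyruvate kinase, PKM, averaged 1160 and 1150 CPM in THP-1 and 1100 and 958 in MOLM-13, also without a call. ENO2, the scarce neuronal enolase, fell 2.27-fold in THP-1 (3.02, 2.69 and 2.42 CPM to 1.26, 1.52 and 0.793; edgeR adjusted p = 0.00564). ENO2 overlaps LRRC23 on its strand, which rose (log2 fold change 0.92), so its level is uncertain.

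Summed over the 16 members that encode glycolytic enzymes, the share of all counts moved little. It was 0.832, 0.837 and 0.836% in THP-1 vehicle libraries and 0.761, 0.756 and 0.782% with the combination. In MOLM-13 it was 0.838, 0.829 and 0.813% with vehicle and 0.723, 0.743 and 0.708% with the combination. The combination libraries were lower throughout in both lines. Of these 16 genes 10 fell in THP-1 and 7 in MOLM-13, and none rose. Over all genes 13.5% fell and 13.5% rose in THP-1, and 7.35% fell and 4.85% rose in MOLM-13. The median log2 fold change of the 16 was -0.19 and -0.25.

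At the pyruvate branch, all 4 members fell in THP-1 and 2 in MOLM-13, where 13.5% and 7.35% of all genes fell. LDHA, lactate dehydrogenase A, went from 1150, 1130 and 1150 CPM to 869, 840 and 795 in THP-1 (1.38-fold lower, edgeR adjusted p = 1.17e-07). In MOLM-13 it went from 1150, 1080 and 983 CPM to 835, 866 and 777 (1.30-fold lower, edgeR adjusted p = 0.00208). The lowest vehicle library lay above the highest combination library in each line. PDK1, a kinase that blocks pyruvate dehydrogenase, fell 1.63-fold in THP-1 (23.2 ± 2.57 to 14.3 ± 0.514 CPM) and 1.59-fold in MOLM-13 (an average of 25.3 to 15.8 CPM). PDK3, of the same kinase family, fell 1.36-fold in THP-1 (edgeR adjusted p = 0.0473), lost without 5 of the 6 libraries (highest 0.170). In MOLM-13 it was 9.21, 7.38 and 8.60 CPM with vehicle and 10.1, 10.4 and 9.50 with the combination, without a call. The lactate exporter gene SLC16A3 (MCT4) fell 1.29-fold in THP-1 and was not called in MOLM-13 (245 ± 30.3 and 207 ± 12.8 CPM). It overlaps CSNK1D on the opposite strand (log2 fold change -0.01 in THP-1 and -0.02 in MOLM-13), so its level is uncertain.

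Among mitochondrial targets, the mitophagy receptor genes BNIP3 and BNIP3L fell in both lines. BNIP3 went from 112, 115 and 120 CPM to 36.4, 49.3 and 40.7 in THP-1 (log2 fold change -1.46 ± 0.08, edgeR adjusted p = 1.13e-13). In MOLM-13 it went from 121, 109 and 101 CPM to 47.2, 53.4 and 43.7 (-1.19 ± 0.10, edgeR adjusted p = 1.27e-07). Its 39 annotated pseudogene copies held counts equal to 2.68% of those of the gene, which bounds what was assigned to copies but not what was dropped as ambiguous. BNIP3L fell 1.91-fold in THP-1 (65.9 ± 2.56 to 34.6 ± 1.17 CPM) and 1.77-fold in MOLM-13 (69.7 ± 5.03 to 39.2 ± 2.15 CPM). FAM162A, a mitochondrial protein gene, fell 1.41-fold in MOLM-13, lost without each of the 6 libraries (highest edgeR adjusted p = 0.159). It overlaps WDR5B on the opposite strand, whose reads could not be told apart without strand and whose log2 fold change was -0.53 in MOLM-13 and -0.57 in THP-1 (edgeR adjusted p = 0.0621 and 0.0117). In THP-1 its groups overlapped (20.9 ± 0.595 and 20.6 ± 2.12 CPM).

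**Figure D2:**
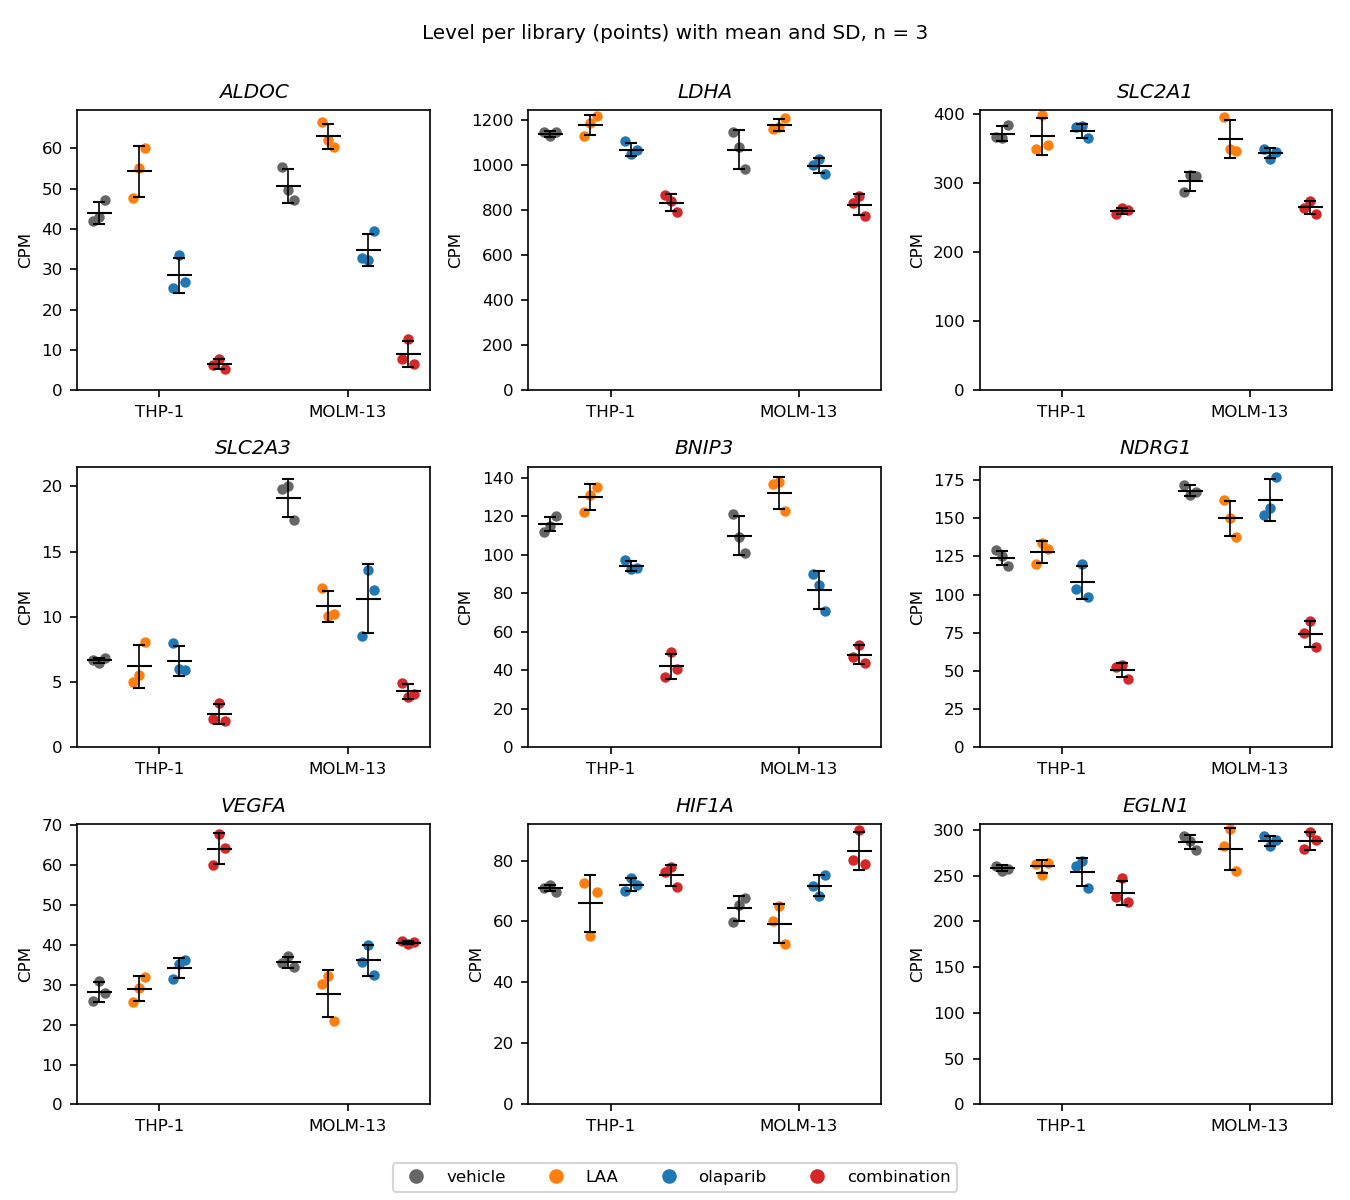
Level of 9 members in each library (points, CPM with TMM scaling, linear axes from 0) by line and treatment, with the mean and SD of 3 libraries. ALDOC, BNIP3 and NDRG1 are lowest with the combination in both lines, VEGFA is highest with it in THP-1 (60.0 to 67.7 CPM), and HIF1A is highest with it in MOLM-13 (79.0 to 90.1 CPM).

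Of the other HIF targets, 7 of 10 fell and 1 rose in THP-1, where 13.5% of all genes fell and 13.5% rose. In MOLM-13, 6 fell, where 7.35% of all genes fell. NDRG1, a stress gene that HIF and iron loss induce, went from 129, 125 and 119 CPM to 52.9, 53.7 and 45.1 in THP-1 (log2 fold change -1.30 ± 0.08, edgeR adjusted p = 7.52e-13). In MOLM-13 it went from 172, 165 and 167 CPM to 74.6, 82.5 and 65.7 (-1.17 ± 0.09, edgeR adjusted p = 3.47e-08). Every combination library was below every vehicle library. BHLHE40, a transcriptional repressor gene, fell 2.22-fold in THP-1 (45.3 ± 1.71 to 20.5 ± 3.38 CPM) and 2.26-fold in MOLM-13 (44.9 ± 2.77 to 19.8 ± 0.849 CPM). P4HA1, the collagen prolyl hydroxylase subunit, fell 1.67-fold and 1.76-fold, while its relative P4HA2 was called in neither line (9.34 and 9.27 CPM in THP-1, 7.58 and 7.69 in MOLM-13). P4HA2 overlaps PDLIM4 and SLC22A4 on the opposite strand, so its level is uncertain without strand. SLC22A4 rose, with log2 fold changes of 1.73 in THP-1 and 0.94 in MOLM-13. The histone demethylase gene KDM3A fell 1.61-fold and 1.41-fold, and MXI1, an antagonist of MYC, fell 1.55-fold in each line.

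ADM, which encodes the vasodilator adrenomedullin, was scarce. In THP-1 it stood at 0.965, 2.79 and 1.75 CPM with vehicle and at 0.0936, 0.381 and 0.476 with the combination (log2 fold change -2.53 ± 0.55, edgeR adjusted p = 0.000867). In MOLM-13 it stood at 4.38, 1.52 and 2.01 CPM with vehicle and at 0.155, 0.0405 and 0 with the combination (-5.27 ± 0.65, edgeR adjusted p = 1.50e-05). Only 4 counts remained in the 3 MOLM-13 combination libraries against 180 with vehicle, a ratio of 42.3 with a 95% interval of 16.3 to 157 that covers counting error only. ANKRD37, an ankyrin repeat gene, fell 2.39-fold in THP-1 on 58 counts against 143. It overlaps UFSP2 on the opposite strand (log2 fold change 0.13 in THP-1), so its level is uncertain. HILPDA, a lipid droplet protein gene, was called in neither line (14.3 and 13.9 CPM in THP-1, 14.8 and 10.9 in MOLM-13).

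VEGFA, the vascular growth factor gene and a classical HIF target, moved opposite to the other called members in THP-1. It lies on the plus strand at chr6:43770184-43786487 (hg38). Its levels were 25.9, 31.0 and 27.9 CPM with vehicle and 60.0, 67.7 and 64.4 with the combination, a rise of 2.26-fold (log2 fold change 1.17 ± 0.09, edgeR adjusted p = 1.93e-10). In MOLM-13 they were 35.4, 37.2 and 34.4 CPM with vehicle and 40.9, 40.3 and 40.7 with the combination (log2 fold change 0.19 ± 0.12, edgeR adjusted p = 0.362). The groups did not overlap in either line.

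LAA alone called no member in THP-1, where 1.49% of genes were called (0.937% higher and 0.551% lower). By edgeR 8 members had an unadjusted p under 0.05 there, 5 higher and 3 lower, against 12.3% of all genes at that threshold, and none was called with DESeq2 or any other setting tried. BNIP3 stood at 122, 131 and 135 CPM with LAA against 112, 115 and 120 with vehicle, above but not called. ALDOC stood at 47.6, 55.1 and 60.1 CPM with LAA (log2 fold change 0.30 ± 0.11, edgeR adjusted p = 0.222). In MOLM-13 LAA called 2 members, where 1.88% of genes were called (0.792% higher and 1.08% lower). By edgeR 12 members had an unadjusted p under 0.05 there, 9 higher and 3 lower, against 14.4% of all genes at that threshold. All 3 LAA libraries lay above all 3 vehicle libraries for 12 members and below them for 4, against 9.67% and 9.23% of genes. SLC2A3 fell 1.76-fold, from 19.8, 20.0 and 17.4 CPM to 12.2, 10.1 and 10.2 (edgeR adjusted p = 0.00833), and lost the call without vehicle replicate 2 (0.0507). PFKFB4 rose 1.35-fold (edgeR adjusted p = 0.0413), a call lost without 4 of the 6 libraries (highest edgeR adjusted p = 0.216). SLC2A3 was also among the 3 members that differed between the lines with vehicle, and the line-marker sum was 31.6 CPM with vehicle and 5.34 with LAA in these libraries. The part of the line markers in its fall was not tested.

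Olaparib alone called 1 member in THP-1, where 0.269% of genes were called (0.0857% lower). By edgeR 11 members had an unadjusted p under 0.05 there, 10 lower and 1 higher, against 9.28% of all genes at that threshold. All 3 olaparib libraries lay below all 3 vehicle libraries for 12 members and above them for 1, against 8.07% and 8.42% of genes. ALDOC fell 1.54-fold, to 25.3, 33.6 and 26.8 CPM, all below the 3 vehicle libraries (log2 fold change -0.62 ± 0.11, edgeR adjusted p = 0.00781). The call was lost without vehicle replicate 3 (edgeR adjusted p = 0.117) or olaparib replicate 1 (0.121). DESeq2 called 3 members lower there. In MOLM-13 edgeR called no member, where 0.00619% of genes were called; 9 members had an unadjusted p under 0.05, 8 lower and 1 higher, against 8.38% of all genes at that threshold, and DESeq2 called 2 lower. ALDOC stood at 32.7, 32.3 and 39.4 CPM with olaparib there (log2 fold change -0.54 ± 0.15, edgeR adjusted p = 0.403). BNIP3 averaged 94.2 CPM with olaparib against 116 with vehicle in THP-1, and 81.7 against 110 in MOLM-13, with no overlap of the libraries and no call in either line. In MOLM-13 olaparib replicate 3, the library with the most mitochondrial counts, held the lowest SLC16A3 (154 CPM) and PGAM1 (474 CPM) of its group.

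Set against each single agent, the combination stood apart too. Against LAA, 25 members were lower and 1 higher in THP-1, where 20.3% of genes were called (10.2% lower and 10.1% higher). In MOLM-13, 28 were lower and 2 higher, where 14.9% of genes were called (8.25% lower and 6.68% higher); this is the comparison with like line-marker sums. There ALDOC was 6.90-fold lower (66.4, 62.0 and 60.4 CPM with LAA against 7.66, 12.8 and 6.61; edgeR adjusted p = 1.48e-09). BNIP3 was 2.75-fold, BHLHE40 2.66-fold, SLC2A3 2.52-fold, NDRG1 2.02-fold and LDHA 1.43-fold lower. PKM (1.26-fold) and ENO1 (1.23-fold) were also lower than with LAA in MOLM-13, but PKM lost the call without combination replicate 3 (edgeR adjusted p = 0.0523) and ENO1 without LAA replicate 3 or any combination library (highest 0.0768). The higher members there were HIF1A (1.40-fold) and VEGFA (1.46-fold).

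Against olaparib, 20 members were lower and 2 higher in THP-1, where 24.2% of genes were called (11.9% lower and 12.3% higher). The higher ones were VEGFA (1.86-fold) and ENO1 (1.12-fold, lost without 4 of the 6 libraries, highest edgeR adjusted p = 0.174). In MOLM-13, 17 were lower, where 7.48% of genes were called (4.59% lower), and 11 were lower without olaparib replicate 1, combination replicate 1 or combination replicate 3. The line-marker sum also differed there (4.08 against 19.2 CPM, with 9 of 14 tested markers lower), and its part was not tested. ALDOC was 4.45-fold lower than with olaparib in THP-1 and 3.82-fold lower in MOLM-13, and NDRG1 2.14-fold and 2.18-fold.

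The interaction asks whether the combination differs from the sum of the single effects on the log2 scale. In THP-1, 16 members were below that sum and 1 above, where 7.57% of genes were called (3.54% below and 4.04% above). In MOLM-13, 11 were below, where 2.04% of genes were called (1.32% below and 0.712% above). ALDOC lay 2.45 ± 0.17 log2 units below the sum in THP-1 (edgeR adjusted p = 1.79e-10) and 2.25 ± 0.22 below it in MOLM-13 (edgeR adjusted p = 6.30e-06). BNIP3 had an interaction of -1.33 ± 0.11 and -1.03 ± 0.14, NDRG1 of -1.13 ± 0.11 and -0.96 ± 0.12, and BHLHE40 of -1.21 ± 0.16 and -1.26 ± 0.19. SLC2A1 also lay below the sum in both lines (-0.52 ± 0.08 and -0.64 ± 0.10). In all 10 members were below it in both lines, which is 62.5% of those of THP-1 and 90.9% of those of MOLM-13. They were ADM, ALDOC, BHLHE40, BNIP3, BNIP3L, LDHA, NDRG1, P4HA1, PFKFB4 and SLC2A1. Single libraries decided some of these calls: LDHA (highest edgeR adjusted p = 0.175) and BNIP3L (0.0519, without combination replicate 3) lost theirs in MOLM-13, and ADM (0.0794) in THP-1. VEGFA lay above the sum in THP-1 (0.85 ± 0.13, edgeR adjusted p = 8.73e-05), and its value in MOLM-13 was 0.53 ± 0.18 without a call. The MOLM-13 interaction draws on groups whose line markers differed. Summed, these markers averaged 31.6 CPM with vehicle, 19.2 with olaparib, 5.34 with LAA and 4.08 with the combination. SLC2A1 also differed between the vehicle groups of the lines. The part of the line markers in the MOLM-13 interactions and in their overlap with THP-1 was not tested.

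**Figure D3:**
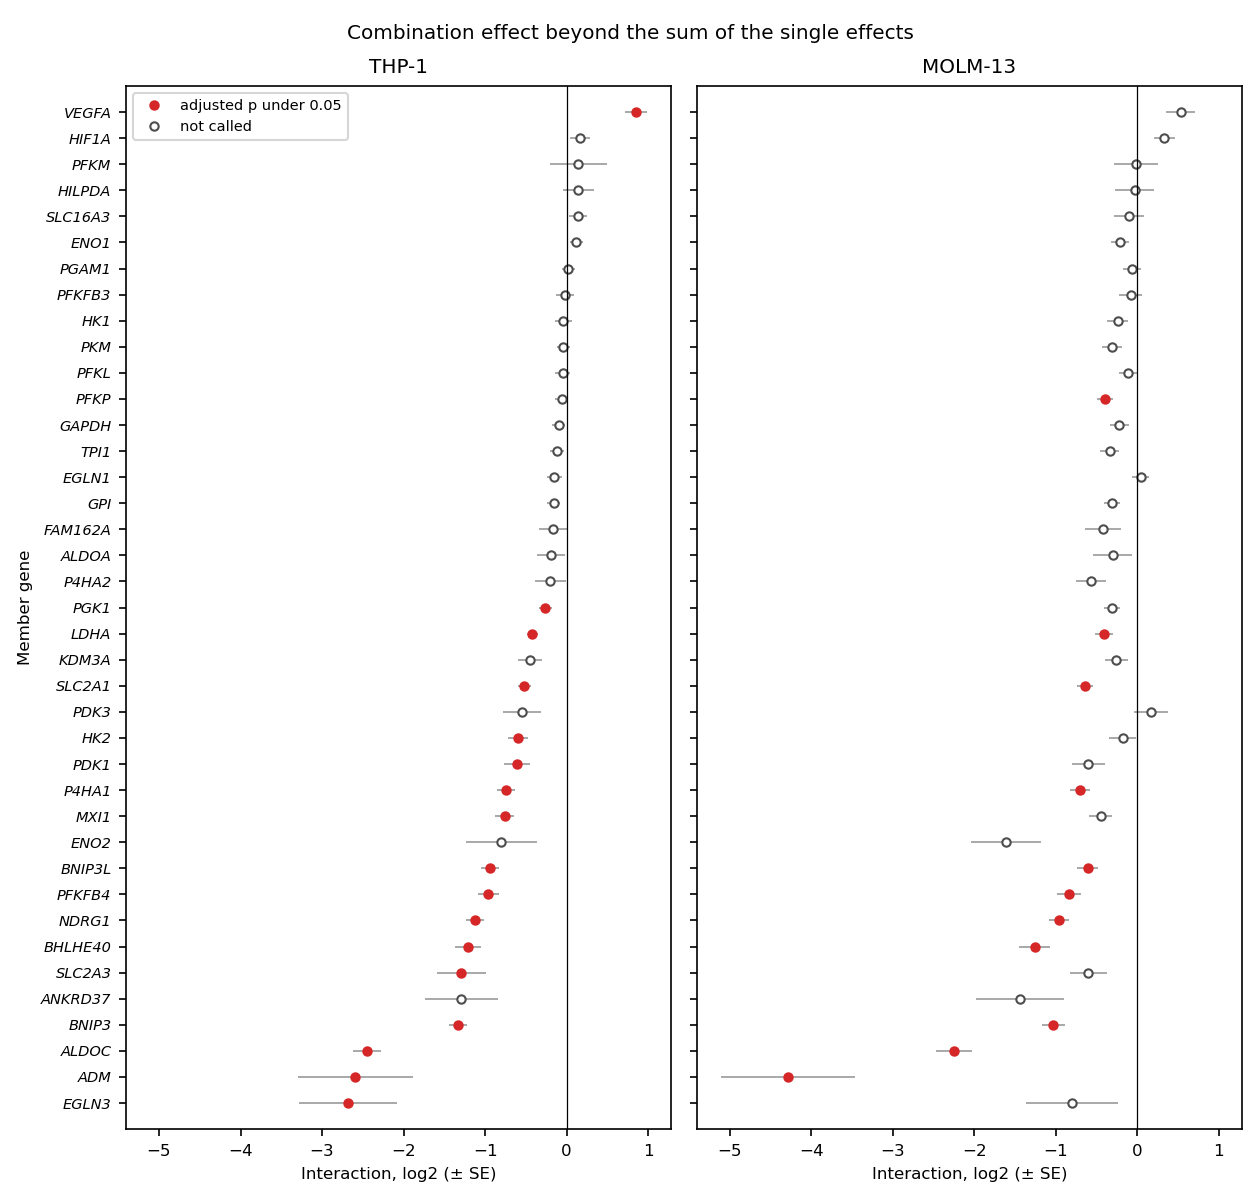
Interaction of each member on the log2 scale (combination minus LAA minus olaparib plus vehicle, ± SE) in THP-1 (left) and MOLM-13 (right), ordered by the THP-1 value; filled points have an edgeR adjusted p under 0.05. Filled points lie left of 0 in both panels except VEGFA in THP-1 at 0.85.

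The 2 lines gave similar profiles with the combination, but the libraries labelled MOLM-13 also differed in line markers. Their marker sum was 31.6 CPM with vehicle and 4.08 with the combination. FLT3 averaged 35.9 and 10.0 CPM there, and 6.68 to 11.1 CPM in the THP-1 groups. The part of the line markers in the likeness and in the line differences was not tested. The likeness is therefore not read as that of independent lines. Of the members, 18 fell in both lines, which is 66.7% of the 27 of THP-1 and 90.0% of the 20 of MOLM-13. Across the 39 members the lines' log2 fold changes correlated with Pearson r = 0.851 and Spearman rho = 0.872, against r = 0.511 over 15793 genes; the points share libraries and genes are not independent replicates. In the test of the difference between the lines 2 members were called, where 2.13% of genes were called (1.53% higher and 0.597% lower in THP-1). VEGFA rose more in THP-1, by 0.99 ± 0.16 on the log2 scale (edgeR adjusted p = 0.000295), and this held under each setting tried. SLC2A1 differed by -0.32 ± 0.09 (edgeR adjusted p = 0.0480), a call lost whenever 1 library was left out (0.0566 to 0.136). For ADM the difference was 2.75 ± 1.02 and was not called (edgeR adjusted p = 0.164). No member was called between the lines for LAA (0.140% of genes called, 0.129% higher and 0.0117% lower in THP-1) or olaparib (0.00585%); by edgeR 5 and 2 members had an unadjusted p under 0.05, against 6.41% and 4.37% of all genes, and every other setting tried, DESeq2 included, also gave 0.

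**Figure D4:**
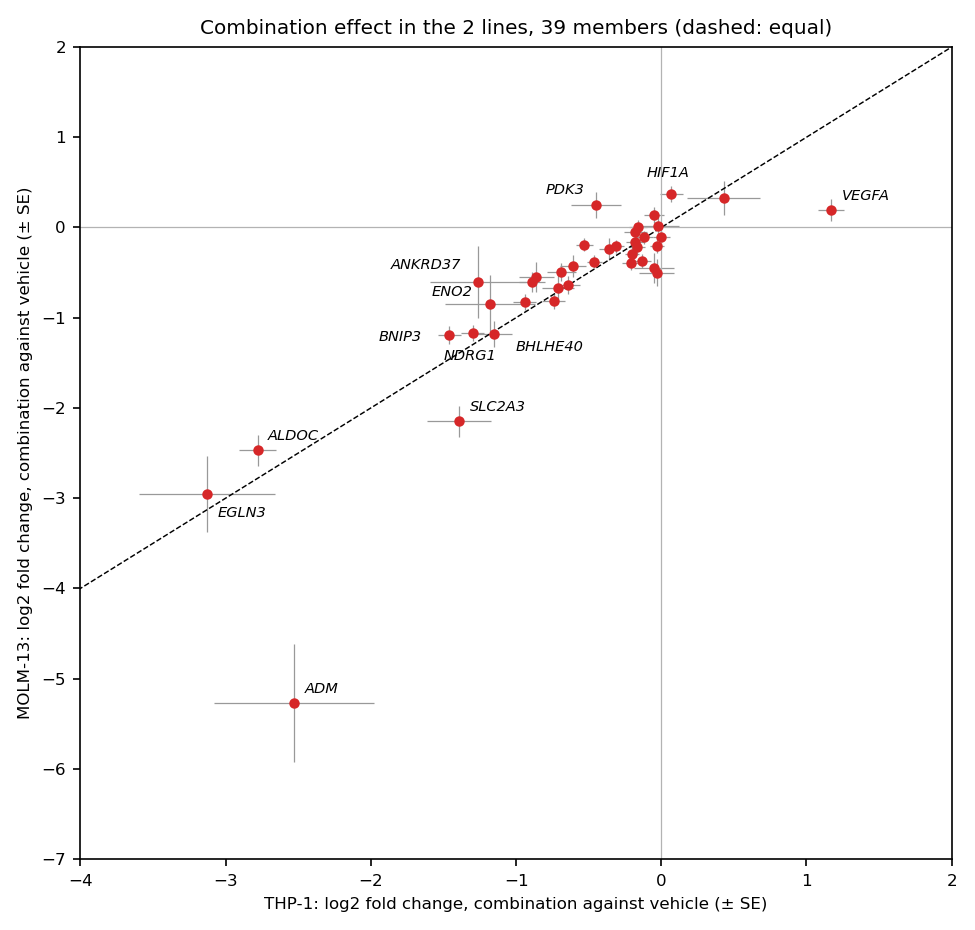
Log2 fold change with the combination in THP-1 (x axis) and MOLM-13 (y axis) of the 39 members (points, ± SE), with equal values on the dashed line. EGLN3, ALDOC, SLC2A3 and ADM lie far into the lower left quadrant, and VEGFA lies right of 0 at 1.17 in THP-1 and 0.19 in MOLM-13.

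Other genes of the pathway were read from lists compiled by function, with earlier results of these data known. The counts that follow stand against the shares of all genes given above for the combination, 13.5% lower and 13.5% higher in THP-1 and 7.35% lower and 4.85% higher in MOLM-13 (27.1% and 12.2% called in all). Of 15 tested HIF regulators, members included, 7 fell (46.7%) in THP-1 with the combination and 3 fell (20.0%) and 1 rose (6.67%) in MOLM-13. EGLN3, EPAS1 and RBX1 (1.28-fold), part of the ligase that tags HIF for destruction, were the 3 that fell there. EPAS1, the HIF-2 alpha subunit, fell 1.99-fold in THP-1 (edgeR adjusted p = 2.47e-10) and 1.33-fold in MOLM-13 (edgeR adjusted p = 0.00255). It had fallen with LAA alone, by 0.59 on the log2 scale in THP-1 and by 0.58 in MOLM-13 (edgeR adjusted p = 2.91e-05 and 0.000616). Its combination effect differed between the lines by -0.57 ± 0.12 (edgeR adjusted p = 0.00437). ARNT, the partner subunit, fell 1.20-fold in THP-1, where EP300, a coactivator gene of HIF, fell 1.18-fold.

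Of 29 tested further HIF targets, 12 fell (41.4%) and 2 rose (6.90%) in THP-1, and 10 fell (34.5%) in MOLM-13. TMEM45A, a membrane protein gene, fell 7.15-fold and 5.07-fold (edgeR adjusted p = 5.50e-17 and 2.57e-10). ZNF395 fell 2.89-fold and 2.53-fold, DDIT4, an inhibitor of mTOR signalling, 1.23-fold and 2.12-fold, and GBE1, the glycogen branching enzyme gene, 2.24-fold and 1.63-fold. In THP-1 DDIT4 fell further with LAA alone (log2 fold change -0.55, edgeR adjusted p = 0.000275). It was higher there with the combination than with LAA (0.25, edgeR adjusted p = 0.0355), and its interaction was 0.42 ± 0.12 (edgeR adjusted p = 0.0296). The 2 that rose in THP-1 were STC2 (5.79-fold), a secreted glycoprotein gene, and ISG20 (5.39-fold), an exonuclease gene that interferon also induces. In further glycolysis genes, 3 of 18 fell (16.7%) and 2 rose (11.1%) in THP-1, and 1 of 19 fell and 1 rose (5.26% each) in MOLM-13, shares near those of all genes; HK3, the hexokinase of myeloid cells, fell 1.59-fold and 1.85-fold. Genes of pyruvate entry and the citric acid cycle had 9 of 28 higher and 7 lower (57.1% called) in THP-1, and 2 higher and 1 lower (10.7% called) in MOLM-13. In THP-1 PDK4, another pyruvate dehydrogenase kinase, fell 2.62-fold, PDHB, a subunit of pyruvate dehydrogenase, 1.54-fold and PC, pyruvate carboxylase, 1.49-fold, while the pyruvate carrier gene MPC1 rose 1.37-fold. In MOLM-13 IDH3A, a citric acid cycle enzyme, rose 1.45-fold and DLD 1.15-fold, and PDHB fell 1.25-fold. Among pentose phosphate genes, PGLS (1.38-fold), TALDO1 (1.31-fold) and TKT (1.24-fold) fell in MOLM-13.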

How the data were processed

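Each of the 24 libraries is 1 sample. HISAT2, SAMtools, DESeq2 and the build hg38 are named per the submitters' processing notes. Neither counter nor annotation nor strand setting is given in the sources used here. A kit that does not mark strand was used, per the labels' protocols. The deposited counts are whole numbers per gene without normalization. The deposited FPKM values are those counts divided by gene length and a library size.

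Counts were fitted with edgeR 4.0.16 in R 4.3.3 (filterByExpr, TMM, quasi-likelihood F test, Benjamini-Hochberg adjustment over all genes, threshold 0.05), each line alone over 12 libraries. Line differences (THP-1 minus MOLM-13) and the comparison of the vehicle groups used all 24. The comparisons numbered 16. Levels were computed as TMM-scaled CPM.

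Alternatives were total-count scaling, DESeq2 1.42.0, no filter, a replicate block, limma 3.58.1 on log2 FPKM (pseudocounts 1 and 0.1), 1 fit over both lines, and leaving out each library. The members and lists were chosen with earlier results of these data known. Named genes were any called member, with full statistics for those that moved most, and HIF1A in each treatment comparison. Up to 4 called genes per further list were picked in a comparison, and some of their values in other comparisons are given too. Markers checked were of myeloid, T and NK, B, erythroid, fibroblast and epithelial cells: CD3E, MS4A1, ALAS2, COL3A1 and KRT5 were at or near 0 in all groups, with maxima of 0.162, 0.0518, 0.206, 0 and 0 CPM. Some genes of these lists are not reported here.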

Additional observations from a re-analysis of the deposited data

Results flagged for a closer look

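The combination effect on VEGFA differed between the lines by 0.99 on the log2 scale (THP-1 minus MOLM-13) in the test of the difference itself. VEGFA averaged 28.2 CPM with vehicle and 64.1 with the combination in THP-1, and 35.6 and 40.6 in MOLM-13. It was the 1 member that rose in THP-1 while 27 fell, where 13.5% of all genes rose and 13.5% fell.

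The combination effect on SLC2A1 differed between the lines by -0.32 in the same test. SLC2A1 averaged 372 CPM with vehicle and 260 with the combination in THP-1, and 303 and 265 in MOLM-13. The combination levels of the lines were close, and the vehicle levels were not. The line markers of the MOLM-13 libraries also differed between vehicle and combination (31.6 and 4.08 CPM summed), and their part in either difference was not tested.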

How the results depend on the processing

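Over 180 called member results and 2515 combinations of result and setting, 2231 kept direction and call, 284 lost the call and 0 changed sign. Left out in turn, single libraries gave 23 to 25 called members for the combination in THP-1 (28 with all libraries) and 16 to 19 in MOLM-13 (21). For olaparib in THP-1 the count of 1 became 3 with DESeq2 or no filter, 0 with either FPKM pseudocount or 1 fit over both lines, and 0 to 2 with single libraries left out. For LAA in MOLM-13 the count of 2 became 1 with total-count scaling or FPKM pseudocount 1, 0 with FPKM pseudocount 0.1, 4 with DESeq2, 5 with 1 fit over both lines, and 0 to 2 with single libraries left out. For olaparib in MOLM-13 the count of 0 became 2 with DESeq2 and 4 with no filter. For the combination against olaparib in MOLM-13 the count of 17 became 11 with total-count scaling or FPKM pseudocount 1, and 11 to 17 with single libraries left out. For the line difference in the combination effect the count of 2 became 1 with no filter and 1 without any 1 library. The causes were not tested. Low counts limit ADM, EGLN3, ANKRD37 and ENO2.

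Same-numbered replicates did not deviate together (correlations from -0.0672 to 0.0849), so the counts gave no sign of pairing by number. This cannot tell whether same-numbered samples were set up together. With a replicate block the count for LAA in MOLM-13 became 1 and that for the line difference in the combination effect became 1.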
